A study of Mus musculus with 24 samples.

Results

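Mt1 and Mt2 encode the 2 metallothioneins that are found in most mouse tissues. They were located by gene name in each of the deposited expression tables, where they are 2 of 46078, 46078 and 55573 genes, and they are described here in all 24 libraries. Metallothioneins are small proteins rich in cysteine that bind zinc, copper and, on exposure, cadmium, and they buffer these metals in the cytosol. Their genes are switched on by metals through MTF1, a zinc-finger factor that binds short metal response elements near their start sites, and glucocorticoids and oxidative stress are also known to raise them. ZnT proteins (Slc30a genes) carry zinc out of the cytosol and ZIP proteins (Slc39a genes) carry it in, and mouse eggs are known to take up zinc while they mature and to release part of it at fertilization.

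The libraries form 12 groups of 2 and hold RNA of pooled mouse embryos of the first cleavage stages or of MII oocytes, which are mature eggs before fertilization. The embryo experiments ask how the transcriptome responds when a repressive histone mark is depleted. KDM6B is a demethylase that removes the histone H3 mark written by Polycomb repressive complex PRC2, PR-DUB is a deubiquitinase complex built around BAP1 that acts on histone H2A, and EED is a core subunit of PRC2. The groups were KDM6B overexpression (OE) and KDM6B control (CTR) embryos at the 4-cell and the 2-cell stage, PR-DUB OE and PR-DUB CTR embryos at the same stages, Eed maternal knockout (matKO) and Eed CTR embryos at the 4-cell stage, and untreated late 2-cell embryos and MII oocytes. KDM6B and PR-DUB embryos came from B6/DBA mothers and PWK fathers, with both parents wild type. Eed embryos came from B6/129mixed mothers, either conditional knockout or control, and wild-type PWK fathers, so that matKO embryos still received a paternal Eed allele. Late 2-cell embryos had B6/DBA parents on both sides, and the oocytes were B6/DBA. Embryos per library numbered 15 for PR-DUB at the 2-cell stage, 16 (OE) or 19 (CTR) for PR-DUB at the 4-cell stage and 17 or 18 for KDM6B at the 2-cell stage, and the labels used here give no number for the rest. What the control embryos received is not in the labels, nor is whether the paired libraries of each group are separate collections, so each p-value below measures only the spread between these libraries, which may be technical. In pools of this kind, fewer cells and less RNA per cell cannot be told apart.

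The levels are FPKM, fragment counts scaled by transcript length and by the mapped fragments of the library, computed by the authors. If the smallest step in the values is 1 fragment, the libraries held 11.5 to 20.6 M fragments, and 10855 to 11801 genes reached 1 FPKM in each. Eed itself was at 22.7 and 26.9 FPKM in matKO libraries, against 28.5 and 33.1 FPKM in Eed CTR libraries. Kdm6b reached 9809 and 14237 FPKM in 2-cell libraries of KDM6B OE and 14588 and 14735 FPKM in KDM6B CTR 2-cell libraries, whereas the 16 libraries of the other groups ranged over 5.24 to 55.1 FPKM. At the 4-cell stage it lay between 547 and 597 FPKM in KDM6B OE libraries and between 401 and 571 FPKM in KDM6B CTR libraries. The KDM6B controls therefore also carried Kdm6b RNA far above the other embryos, and OE against CTR is not a comparison of this RNA present with absent. Bap1 was at 20.3 to 22.02 FPKM in PR-DUB OE 2-cell libraries and at 16.1 to 18.3 FPKM in PR-DUB CTR 2-cell libraries, and at 8.81 to 10.6 FPKM (OE) and 6.02 to 6.20 FPKM (CTR) at the 4-cell stage. Asxl1, a partner of BAP1, was at 16.0 to 17.6 FPKM (OE) and 16.8 to 17.2 FPKM (CTR) at the 2-cell stage, and at 7.60 to 10.8 FPKM (OE) and 12.2 to 12.9 FPKM (CTR) at the 4-cell stage. A large excess of these transcripts was thus not seen in PR-DUB OE libraries, and the groups are called by their labels below. The 12 oocyte markers summed to 5071 to 5362 FPKM in MII libraries, 394 to 867 FPKM in 2-cell libraries and 104 to 244 FPKM in 4-cell libraries. The 14 markers of the 2-cell stage, when the embryonic genome is activated, summed to 209 to 734 FPKM in 2-cell libraries and to 31.8 to 35.1 FPKM in MII libraries. At the 4-cell stage their sum was 104 to 105 FPKM in KDM6B OE embryos and 75.3 to 105 FPKM in KDM6B CTR libraries, but 171 to 625 FPKM in PR-DUB OE and 330 to 352 FPKM in PR-DUB CTR libraries. Of 18 markers of cumulus and granulosa cells, which surround the egg, none reached 1 FPKM in any of the 22 embryo libraries, where they summed to 0.137 to 1.77 FPKM. In MII libraries they summed to 7.98 to 8.18 FPKM, and 1 of the 18 reached 1 FPKM. The 8 markers of blood and immune cells summed to 0.320 to 8.20 FPKM in embryo libraries and to 0.601 to 1.92 FPKM in MII libraries.

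In the mm10 annotation used here (GENCODE vM21), both genes lie on the forward strand of chromosome 8, with Mt2 upstream of Mt1 and 5513 bp between them. Mt1 (ENSMUSG00000031765) spans chr8:94179082-94180327 and Mt2 (ENSMUSG00000031762) spans chr8:94172664-94173568. Each has 3 exons, and the main transcripts, Mt1-201 and Mt2-201, are 549 and 511 nt long. The longest run of bases that these transcripts share is 20 nt, and the reads were 76 bases long per the labels. No 76-nt window of Mt1-201 occurs in a transcript of another annotated gene. Of the 436 such windows of Mt2-201, 139 lie in Gm45774, an antisense gene on the reverse strand over chr8:94170748-94173412. Gm45774 is listed in 1 of the 3 tables, at 0.539 and 0.494 FPKM in late 2-cell libraries and at 0 in both MII libraries. The library kit keeps strand, but the sources used here do not say whether strand was used in quantification, so reads of Mt2 and Gm45774 may not be separated.

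The promoters are shown because both genes were called higher in the late 2-cell embryo than in the oocyte and at the 4-cell than at the 2-cell stage in both controls, and because the metal response element is their best known control sequence. The 250 bases upstream of the RefSeq start sites (GRCm38.p6, forward strand, chr8:94178839-94179088 for Mt1 and chr8:94172368-94172617 for Mt2) are printed from 5′ to 3′, with matches to the core of the metal response element in capitals.
Mt1: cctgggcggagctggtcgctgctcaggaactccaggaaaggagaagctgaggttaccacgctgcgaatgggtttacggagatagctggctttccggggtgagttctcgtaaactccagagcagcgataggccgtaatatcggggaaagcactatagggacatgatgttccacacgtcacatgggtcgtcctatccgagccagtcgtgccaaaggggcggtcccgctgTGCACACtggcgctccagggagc
Mt2: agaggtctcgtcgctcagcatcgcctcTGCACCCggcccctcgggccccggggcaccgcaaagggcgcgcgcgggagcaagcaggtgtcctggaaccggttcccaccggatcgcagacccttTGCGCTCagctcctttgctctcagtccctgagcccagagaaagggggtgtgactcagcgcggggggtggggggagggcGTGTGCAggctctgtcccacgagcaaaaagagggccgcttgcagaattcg
The core was searched as TGCACNC or TGCGCNC on both strands, over the 250 printed bases and the 50 bases after the start. Mt1 held 3 matches, of which 1 (TGCACAC) ends 17 bases before the start and the other 2 lie within the 50 bases after it. Mt2 held 4 matches, of which 3 are printed above and 1 lies after the start. Of 32851 mouse promoter windows of the same length, 25.7% held at least 1 match, 1.97% at least 3 and 0.518% at least 4, and the windows of Mt3 and Mt4 held 1 each. An antioxidant response element core, TGACNNNGC, occurred once in the Mt2 window, at 79 to 71 bases before the start, and not in the Mt1 window. The search for this element was not limited to that form. Of all windows, 27.8% held a match in any form searched, which is an upper limit for TGACNNNGC. The GC box GGGCGG occurred 3 times in Mt1, and 1 of these overlaps a metal response element core after the start. It did not occur in Mt2, and 35.7% of all windows held one. These are matches of letters and were not tested as binding sites. The RefSeq starts used here, chr8:94179089 for Mt1 and chr8:94172618 for Mt2, differ from the gene starts of the annotation given above. Sequence outside the 300 bases of each window was not searched, so the counts of Mt1 and Mt2 hold for these windows only. The first exon of Mt1-201 runs to chr8:94179338, past the end of the Mt1 window. Elements in or near the unsearched part of that exon would have been missed.

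Both genes were among the most abundant transcripts of the embryos and close to 0 in the egg. Across the 22 embryo libraries Mt1 ranged over 182 to 719 FPKM and ranked 46th to 196th of all genes in its library. Mt2 ranged over 130 to 518 FPKM and ranked 75th to 321st. On the same assumption of 1 fragment per step, these levels rest on 1989 to 6044 fragments for Mt1 and 1322 to 4799 fragments for Mt2 in each embryo library. The other members of the family were almost silent. Mt3, the neuronal form, was listed at 0 in 24 of 24 libraries. Mt4, the form of stratified epithelium, lay between 0 and 3.60 FPKM, with 13 libraries at 0 and 4 at or above 1 FPKM. Mtf1, the metal-sensing factor, was present in all 24 libraries at 23.1 to 45.8 FPKM.

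**Figure D1:**
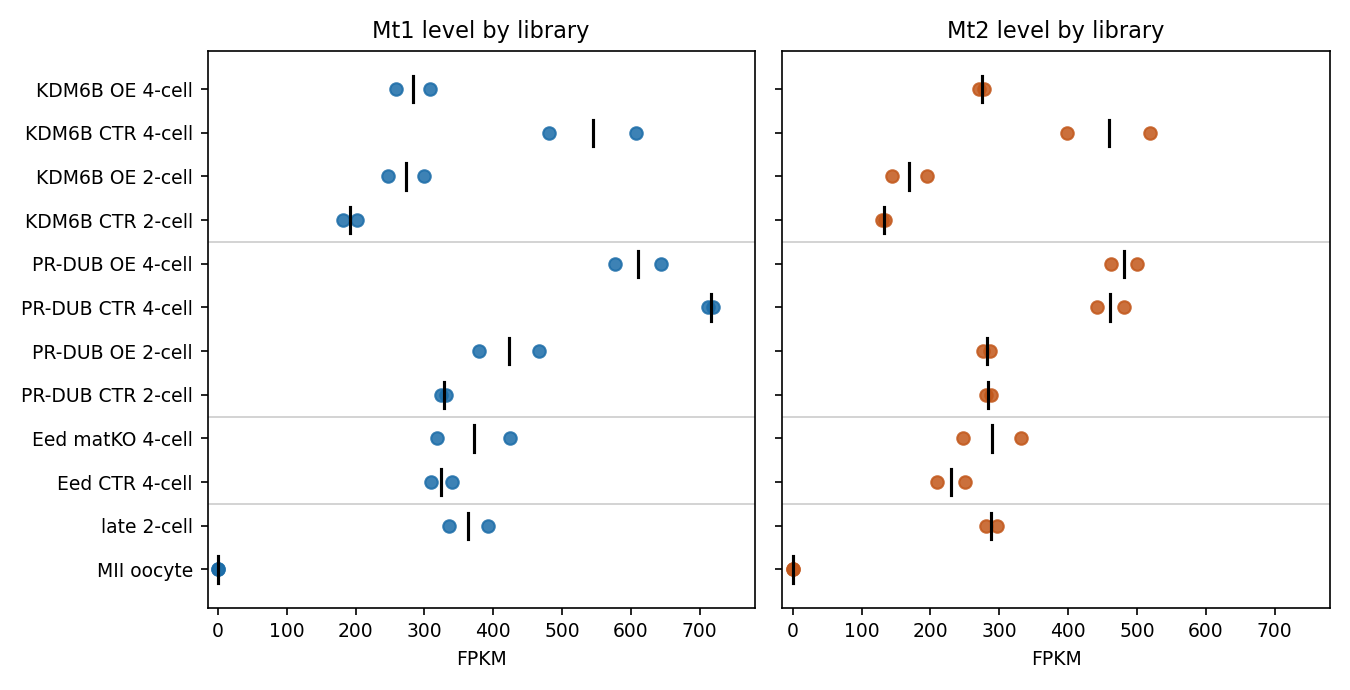
Level of Mt1 (left) and Mt2 (right) in each of the 24 libraries, in FPKM on a linear axis from 0, with 1 row for each group, a point for each library and a vertical line at the mean of the 2. The MII oocyte points sit at 0.562 FPKM or below, and every embryo point lies at 130 FPKM or above. Horizontal lines separate the experiments, and the Eed rows and the untreated rows come from tables normalized separately from the rest.

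Late 2-cell embryos and MII oocytes were compared to see how the embryo's transcripts differ from those the egg stores. Mt1 was at 392 and 336 FPKM in late 2-cell libraries, against 0.562 and 0.0793 FPKM in MII libraries. Mt2 was at 296 and 280.2 FPKM in late 2-cell libraries, against 0.211 FPKM in 1 MII library and a listed 0 in the other. Both late 2-cell libraries were high and both MII libraries were near 0 for each gene, with no overlap. Of all genes tested, 42.1% lay higher in late 2-cell embryos without overlap, and 91.5% did not overlap in either direction. The ratio of the late 2-cell to the MII mean was 1134 for Mt1, with a counting interval of 563 to 3340 (exact Poisson, 95%) that comes from about 6 fragments in the MII libraries together. For Mt2 the ratio was 2728, with an interval of 751 to 22409 that rests on about 2 fragments. These intervals cover counting error in the MII libraries only. On the log2(FPKM + 1) scale, which understates the change of genes near 0, the difference was 8.13 (SE 0.21) for Mt1, with an adjusted p of 8.19e-06 in limma. For Mt2 it was 8.04 (SE 0.15), with an adjusted p of 6.20e-06. These were the 8th and 9th largest positive changes of the 13237 genes tested. A call by itself separates little here, since 82.7% of genes were called, 38% as higher and 44.6% as lower in late 2-cell embryos.

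Zinc transporters differed between embryo and egg in both directions, in a comparison that called 38% of all genes as higher and 44.6% as lower. With 82.7% of all genes called, the counts of called zinc transporters do not set them apart from other genes. Of 10 ZIP importers tested, 6 were higher and 3 lower in late 2-cell embryos, with a median log2 change of 0.74 against -0.20 for all genes. Slc39a4, a ZIP importer of the plasma membrane, was at 42.0 and 40.6 FPKM in late 2-cell libraries and at 0.0393 and 0.0786 FPKM in MII libraries (log2 change 5.32, SE 0.15, limma adjusted p 9.67e-06). Slc39a1 was at 13.2 and 11.5 FPKM in late 2-cell libraries, against 0.114 and 0.185 FPKM in MII libraries (log2 change 3.53). Slc39a14 was at 7.04 and 6.17 FPKM in late 2-cell libraries and at 0.133 and 0.213 FPKM in MII libraries. Each of these importers was near 0 in both oocyte libraries, as Mt1 and Mt2 were. Slc39a8 was lower, at 1.11 and 1.60 FPKM in late 2-cell libraries against 19.1 and 4.73 FPKM in MII libraries (log2 change -2.20, adjusted p 0.0134).

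Of 7 ZnT exporters tested, 3 were higher and 3 lower, where 38% of all genes were called higher and 44.6% lower. Their median log2 change was 0.18, against -0.20 for all genes. Slc30a1, the exporter of the plasma membrane and a known MTF1 target, was at 39.0 and 40.9 FPKM in late 2-cell libraries and at 16.7 and 16.0 FPKM in MII libraries (log2 change 1.24, SE 0.12, limma adjusted p 0.000205). Slc30a4 was lower, at 2.17 and 2.97 FPKM in late 2-cell libraries, against 24.4 and 20.1 FPKM in MII libraries (log2 change -2.71). Slc30a3 was at 4.13 and 4.46 FPKM in late 2-cell libraries and at 30.2 and 50.3 FPKM in MII libraries (log2 change -2.92). Mtf1 was lower in the embryos, at 34.2 and 32.5 FPKM, against 45.1 and 44.5 FPKM in the oocytes, a log2 change of -0.42 (SE 0.11, adjusted p 0.0141).

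The counts of the following lists stand beside 82.7% of all genes called, 38% as higher and 44.6% as lower, and do not set the lists apart. The list of Mtf1 and its known targets held 4 higher and 5 lower genes of 9 tested, with a median of -0.42. It includes Mtf2, a Polycomb-associated protein that shares the name and not the function of MTF1, and Mtf2 was among the 4 higher genes (log2 change 1.96). Hif1a, the hypoxia factor, fell by 3.29 on the log2 scale, and Selenow, a selenoprotein, fell by 2.54. Of 15 genes of the Nrf2 oxidative stress response, 5 were higher and 8 lower (median -0.63). Among them, Prdx1, a peroxiredoxin, was at 6.43 and 7.14 FPKM in late 2-cell libraries, against 119.9 and 118.5 FPKM in MII libraries. Copper handling genes split into 5 higher and 5 lower of 12, and iron handling genes into 4 and 4 of 10. Tfrc, the transferrin receptor, was the largest change of the iron list, at 261 and 234 FPKM in late 2-cell libraries and 2.95 and 3.21 FPKM in MII libraries. Of 6 glucocorticoid-responsive genes 2 were higher and 2 lower, and Klf9, a transcription factor, was at 57.5 and 54.0 FPKM in late 2-cell libraries, against 0.0970 and 0.0485 FPKM in MII libraries. Of the genes around the Mt locus, Bbs2, a ciliary protein, was higher (log2 change 1.70). The other higher genes of that list include Mt1 and Mt2 themselves.

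**Figure D2:**
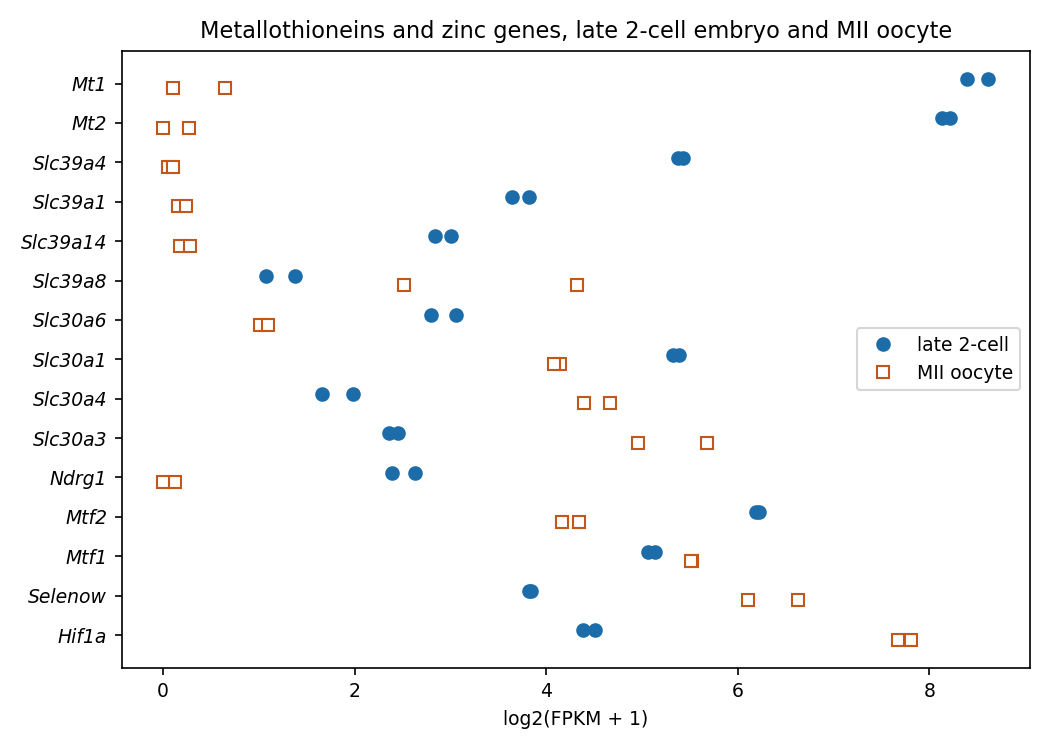
Level of Mt1, Mt2 and the called zinc transporters and Mtf1-list genes, as log2(FPKM + 1), in the 2 late 2-cell libraries (filled circles) and the 2 MII oocyte libraries (open squares). Mt1 and Mt2 lie above 8 in late 2-cell libraries and below 1 in MII libraries, while Mtf1 lies above 5 in both.

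From the 2-cell to the 4-cell stage both genes rose in control embryos of both experiments. In PR-DUB CTR embryos Mt1 was at 719 and 712 FPKM at the 4-cell stage, against 332 and 324 FPKM at the 2-cell stage. Mt2 was at 482 and 441 FPKM at the 4-cell stage, against 281 and 288 FPKM at the 2-cell stage. Every 4-cell value exceeded every 2-cell value for both genes, as for 37.8% of all genes tested. The log2 change was 1.12 (SE 0.15, limma adjusted p 3.69e-05) for Mt1 and 0.70 (SE 0.14, adjusted p 0.00131) for Mt2, in a comparison that called 56.7% of 15055 genes, 26.5% as higher and 30.2% as lower. In KDM6B CTR embryos Mt1 was at 481 and 608 FPKM at the 4-cell stage, against 202 and 182 FPKM at the 2-cell stage. Mt2 was at 399 and 518 FPKM at the 4-cell stage, against 134 and 130 FPKM at the 2-cell stage. Again nothing overlapped, and 46.7% of all genes tested lay higher at the 4-cell stage in this way. The log2 changes were 1.49 (SE 0.15, limma adjusted p 2.56e-06) and 1.78 (SE 0.14, adjusted p 5.03e-07), where 64.2% of genes were called, 38% as higher and 26.1% as lower.

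The size of this rise depended on the scale. In KDM6B CTR embryos the median log2 change of all genes was 0.28 in FPKM, 0.02 after rescaling by the median of ratios and -0.06 in TPM. In PR-DUB CTR embryos it was -0.04, 0.04 and -0.31 on these 3 scales. The rise of Mt2 in PR-DUB CTR embryos was 0.26 in TPM with an adjusted p of 0.123, no longer called. Mt1 in both controls and Mt2 in KDM6B CTR embryos stayed called on all 3 scales. In KDM6B CTR embryos the rise was 1.07 after rescaling and 0.93 in TPM for Mt1, and 1.36 and 1.22 for Mt2. In PR-DUB CTR embryos it was 1.31 after rescaling and 0.69 in TPM for Mt1, and 0.88 after rescaling for Mt2. Of the 12 oocyte markers, 11 were lower at the 4-cell stage in PR-DUB CTR embryos and 9 in KDM6B CTR embryos, and their part in these changes was not tested.

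In overexpression embryos the rise was less uniform. In PR-DUB OE embryos Mt1 was at 577 and 644 FPKM at the 4-cell stage, against 466 and 379 FPKM at the 2-cell stage (log2 change 0.54, SE 0.15, limma adjusted p 0.00770). Mt2 was at 462 and 500.03 FPKM at the 4-cell stage, against 277 and 286 FPKM at the 2-cell stage (log2 change 0.77, limma adjusted p 0.000629). In this comparison 58.1% of genes were called, and 40.2% lay higher at the 4-cell stage without overlap. The stages did not overlap for either gene, but Mt1 lost its call in TPM (log2 change 0.14) and without the second PR-DUB OE library of the 2-cell stage (0.39, adjusted p 0.0878) or of the 4-cell stage (0.46, adjusted p 0.0581). In KDM6B OE embryos Mt1 was at 308 and 258 FPKM at the 4-cell stage, against 247 and 299 FPKM at the 2-cell stage. These values overlap, and the log2 change was 0.05 (SE 0.15, limma adjusted p 0.784). The sign was opposite after rescaling (-0.22, not called) and in TPM (-0.47, limma adjusted p 0.0114), where Mt1 was called as lower at the 4-cell stage. As for 43.6% of all genes tested, Mt2 was higher at the 4-cell stage without overlap. Mt2 was at 271 and 278 FPKM in 4-cell KDM6B OE libraries, against 144 and 195 FPKM in 2-cell KDM6B OE libraries. It rose by 0.71 on the log2 scale (SE 0.14, limma adjusted p 0.00107) where 59.3% of genes were called, but by 0.19 in TPM, which was not called.

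Slc30a1 went the other way from Mt1 and Mt2 between the stages. It was at 27.2 and 30.3 FPKM in PR-DUB CTR 4-cell libraries, against 53.7 and 49.1 FPKM in PR-DUB CTR 2-cell libraries (log2 change -0.82, SE 0.28, limma adjusted p 0.0254). In KDM6B CTR embryos it was at 5.0 and 5.2 FPKM at the 4-cell stage, against 23.9 and 30.6 FPKM at the 2-cell stage (log2 change -2.20). Mtf1 was not called in either control, with log2 changes of -0.14 and -0.34. Slc39a4 was at 103 and 90.1 FPKM in KDM6B CTR 4-cell libraries, against 7.04 and 3.93 FPKM in KDM6B CTR 2-cell libraries (log2 change 3.95). The stage comparisons called 26.5% of all genes as higher and 30.2% as lower in PR-DUB CTR embryos. In KDM6B CTR embryos they called 38% as higher and 26.1% as lower. Whether the lists differ from these shares was not tested. Of 12 ZIP importers tested, 5 were higher and 2 lower at the 4-cell stage in PR-DUB CTR embryos, and 8 were higher and 3 lower in KDM6B CTR embryos. Of 8 ZnT exporters, 2 were higher and 3 lower in PR-DUB CTR embryos and 5 were higher and 3 lower in KDM6B CTR embryos. Slc30a3, an exporter into vesicles, was lower at the 4-cell stage in both controls (log2 changes -1.66 and -2.71). Of 9 genes of the Mtf1 list, 1 was higher and 3 lower in PR-DUB CTR embryos, and 3 were higher and 4 lower in KDM6B CTR embryos. Near the locus, Nup93, a nuclear pore protein, was higher (log2 changes 0.92 and 2.39) at the 4-cell stage in PR-DUB CTR and KDM6B CTR embryos.

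Mt1 was lower in KDM6B OE than in KDM6B CTR embryos at the 4-cell stage, with a call that depended on the fit. Kdm6b RNA itself overlapped between these groups, at 547 to 597 FPKM (OE) and 401 to 571 FPKM (CTR). Mt1 was at 308 and 258 FPKM in 4-cell KDM6B OE libraries, against 481 and 608 FPKM in KDM6B CTR 4-cell libraries, a ratio of means of 0.520. Mt2 was at 271 and 278 FPKM in 4-cell KDM6B OE libraries, against 399 and 518 FPKM in KDM6B CTR 4-cell libraries, a ratio of 0.598. Both OE libraries lay below both CTR libraries for each gene, as they did for 20.2% of all genes tested, and 35.1% of genes did not overlap in either direction. The log2 change of Mt1 was -0.94 (SE 0.15) with an adjusted p of 0.0208 in limma, in a comparison that called 0.359% of 15055 genes, 0.133% as higher and 0.226% as lower. Mt2 changed by -0.73 (SE 0.14) with an adjusted p of 0.0606, short of the threshold of 0.05, and passed it in TPM (-0.77, adjusted p 0.0348) and without the first KDM6B CTR library (-0.92, adjusted p 0.0412). The Mt1 call did not survive without the second library of KDM6B CTR (log2 change -0.77, adjusted p 0.0935) or of KDM6B OE (-0.81, adjusted p 0.0916), nor in a fit on these 4 libraries alone (adjusted p 0.485) or with a replicate block (adjusted p 0.168). Mt1 ranked 347th from the bottom by size of change.

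Of 72 genes tested in the zinc, copper, iron, oxidative stress, glucocorticoid and Mtf1 lists, limma called 0 at this stage. It called 0.359% of all genes tested, so the count does not set these lists apart from other genes. Slc30a1 was at 0.48 on the log2 scale (adjusted p 0.561) and Mtf1 at -0.22 (adjusted p 0.688). The median log2 change was -0.15 for 12 ZIP importers and -0.28 for 8 ZnT exporters, against -0.03 for all genes. The sum of the oocyte markers was 149 to 154 FPKM in KDM6B OE 4-cell embryos and 172 to 187 FPKM in KDM6B CTR 4-cell libraries, and their part in the Mt1 difference was not tested.

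At the 2-cell stage the KDM6B difference pointed the other way but was not called. Mt1 was at 247 and 299 FPKM in 2-cell KDM6B OE libraries, against 202 and 182 FPKM in KDM6B CTR 2-cell libraries. The log2 change was 0.50 (SE 0.15, limma adjusted p 0.125), and 0.757% of genes were called. Mt2 was at 144 and 195 FPKM in 2-cell KDM6B OE libraries, against 134 and 130 FPKM in KDM6B CTR 2-cell libraries (log2 change 0.34, adjusted p 0.296). The OE libraries were above the CTR libraries for both genes, as they were for 22.9% of all genes tested. Of the same 72 list genes limma called 1, where it called 0.757% of all genes tested. The called gene was Tfrc, at 141 and 127 FPKM in 2-cell KDM6B OE libraries and at 68.0 and 72.0 FPKM in KDM6B CTR 2-cell libraries (log2 change 0.92, SE 0.14, adjusted p 0.0181). With a replicate block it was not called (adjusted p 0.145). The oocyte markers summed to 597 to 678 FPKM in 2-cell KDM6B OE libraries and to 823 to 867 FPKM in KDM6B CTR 2-cell libraries, and the markers of the 2-cell stage to 454 to 638 FPKM in the OE and 727 to 734 FPKM in the CTR libraries. Their part in the differences was not tested.

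The KDM6B difference itself differed between the stages for Mt1. The 4-cell minus the 2-cell effect was -1.44 (SE 0.21, limma adjusted p 0.0343) for Mt1, in a test that called 0.139% of genes. For Mt2 it was -1.07 (SE 0.20, adjusted p 0.0709), and it was called without the first 2-cell library of KDM6B OE (adjusted p 0.0238) or the first 4-cell library of KDM6B CTR (adjusted p 0.0431). The Mt1 call was lost in 5 of the 8 fits that left out 1 library, with changes of -1.61 to -1.27 and adjusted p values of 0.0193 to 0.144. Without the second KDM6B CTR library of the 2-cell stage the adjusted p was 0.144, and without the first it was 0.0557. It was 0.0855 without the second KDM6B OE library of the 2-cell stage, 0.0778 without the second KDM6B CTR library of the 4-cell stage and 0.0678 without the second KDM6B OE library of that stage. A replicate block (adjusted p 0.194) and a fit on these 8 libraries alone (adjusted p 0.256) also ended it. Of the 72 list genes Tfrc was called in this test (-1.20, SE 0.19, adjusted p 0.0438), but not with a replicate block (adjusted p 0.226), and Slc30a1 was at -0.06 (adjusted p 0.971).

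Neither gene had a called change in PR-DUB OE against PR-DUB CTR embryos. At the 2-cell stage Mt1 was at 466 and 379 FPKM in PR-DUB OE libraries, against 332 and 324 FPKM in PR-DUB CTR libraries. Both OE values were above both CTR values, as for 31.4% of all genes tested, with a log2 change of 0.36 (SE 0.15, limma adjusted p 0.288, 1.18% of genes called). Mt2 was at 277 and 286 FPKM in PR-DUB OE 2-cell libraries and at 281 and 288 FPKM in PR-DUB CTR 2-cell libraries, which overlap (log2 change -0.01, SE 0.14, adjusted p 1). Of the 72 list genes limma called 0 at the 2-cell stage, where it called 1.18% of all genes tested. At the 4-cell stage Mt1 was at 577 and 644 FPKM in PR-DUB OE libraries, against 719 and 712 FPKM in PR-DUB CTR libraries, a log2 change of -0.23 (SE 0.15, adjusted p 0.337) without overlap, where 18.8% of all genes tested lay lower in this way. Mt2 was at 462 and 500.03 FPKM in PR-DUB OE 4-cell libraries, against 482 and 441 FPKM in PR-DUB CTR 4-cell libraries, a log2 change of 0.06 (SE 0.14, adjusted p 0.849) with overlap. At this stage 15.7% of genes were called, 12.3% as higher and 3.41% as lower.

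Of the 72 list genes 11 were called in PR-DUB OE embryos at the 4-cell stage, a share close to the 15.7% called of all genes tested. The count therefore does not set these lists apart from other genes. Slc30a1 was lower, at 8.66 and 18.5 FPKM in PR-DUB OE libraries, against 27.2 and 30.3 FPKM in PR-DUB CTR libraries (log2 change -1.11, SE 0.28, limma adjusted p 0.0204). Of 12 ZIP importers 1 was higher, Slc39a13, a transporter of the Golgi, at 2.46 and 3.46 FPKM in PR-DUB OE libraries and 0.688 and 0.639 FPKM in PR-DUB CTR libraries (log2 change 1.24). Slc30a7, an exporter into the Golgi, was higher by 0.72 on the log2 scale. Of 12 copper genes 2 were higher. They were Commd1, which regulates copper transport (log2 change 2.04), and Atp7a, a copper pump (0.83). Of 18 Nrf2 genes 3 were higher. Txnrd1, thioredoxin reductase, was at 9.75 and 14.1 FPKM in PR-DUB OE libraries, against 2.54 and 2.66 FPKM in PR-DUB CTR libraries (log2 change 1.82, SE 0.30, adjusted p 0.00321), and Gsr, glutathione reductase, and Nfe2l2, which encodes Nrf2, were higher by 1.02 and 0.85. Aco1, an iron-sensing aconitase, and Hif1a were higher by 0.90 and 0.62. Dusp1, a phosphatase gene of the glucocorticoid list, fell by 1.17 on the log2 scale. The 2 PR-DUB OE libraries differed in the markers of the 2-cell stage, which summed to 171 FPKM in 1 and 625 FPKM in the other, and their part in these differences was not tested.

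The OE against CTR differences of the 2 experiments, named effects here, were compared at each stage. At the 4-cell stage the PR-DUB effect minus the KDM6B effect was 0.71 (SE 0.21, limma adjusted p 0.0536) for Mt1 and 0.79 (SE 0.20, adjusted p 0.0346) for Mt2, in a test that called 9.27% of genes. The Mt2 call was lost in 7 of the 8 fits that left out 1 library, with adjusted p values of 0.0155 to 0.104, and it was kept without the first KDM6B CTR library, when Mt1 was also called (0.87, adjusted p 0.0274). At the 2-cell stage the difference was -0.14 (adjusted p 0.801) for Mt1 and -0.36 (adjusted p 0.407) for Mt2, where 1.72% of genes were called. Within PR-DUB, the 4-cell minus the 2-cell effect was -0.59 (SE 0.21, adjusted p 0.165) for Mt1 and 0.07 (SE 0.20, adjusted p 0.901) for Mt2, where 1.74% were called. Slc30a1 had a called difference between the overexpressions at the 4-cell stage (-1.59, SE 0.40, adjusted p 0.0298; 0.0516 with a replicate block), opposite in sign to that of Mt2.

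The control embryos of the KDM6B and PR-DUB experiments differed at the 2-cell stage although stage and cross matched. At the 2-cell stage Mt1 was at 202 and 182 FPKM in KDM6B CTR libraries, against 332 and 324 FPKM in PR-DUB CTR libraries, and Mt2 was at 134 and 130 FPKM in KDM6B CTR libraries, against 281 and 288 FPKM in PR-DUB CTR libraries. The log2 differences were -0.77 (SE 0.15, limma adjusted p 0.00241) and -1.10 (SE 0.14, adjusted p 0.000249), where 27% of genes were called. They were smaller but still called on other scales. After rescaling by the median of ratios they were -0.44 (limma adjusted p 0.0307) for Mt1 and -0.77 (adjusted p 0.0013) for Mt2. In TPM they were -0.51 (adjusted p 0.0178) and -0.84 (adjusted p 0.00125). Slc30a1 was lower as well, at 23.9 and 30.6 FPKM in KDM6B CTR libraries and 53.7 and 49.1 FPKM in PR-DUB CTR libraries (log2 difference -0.90, adjusted p 0.0319), and Slc39a4 was at 7.04 and 3.93 FPKM in KDM6B CTR libraries against 36.6 and 36.9 FPKM in PR-DUB CTR libraries. At the 4-cell stage the differences were -0.40 (SE 0.15, adjusted p 0.0522) for Mt1 and -0.02 (SE 0.14, adjusted p 0.942) for Mt2, where 33.3% of genes were called, and Mt1 was called after rescaling by the median of ratios (-0.67, adjusted p 0.00328) and without the second KDM6B CTR library (-0.57, adjusted p 0.0248). The 2 sets of controls differ in the Kdm6b RNA they carry, in embryo number and in oocyte markers, which summed to 823 to 867 FPKM in KDM6B CTR and to 422 to 448 FPKM in PR-DUB CTR 2-cell libraries. The markers of the 2-cell stage also differed, at 727 to 734 FPKM in KDM6B CTR and 362 to 377 FPKM in PR-DUB CTR 2-cell libraries, and at 75.3 to 105 FPKM in KDM6B CTR and 330 to 352 FPKM in PR-DUB CTR 4-cell libraries. The experiment and these features cannot be told apart.

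Loss of maternal Eed gave no called change. Mt1 was at 319 and 425 FPKM in Eed matKO 4-cell libraries, against 339.6 and 309.6 FPKM in Eed CTR 4-cell libraries (log2 change 0.18, SE 0.15, limma adjusted p 0.784). Mt2 was at 247 and 331 FPKM in Eed matKO libraries, against 250.1 and 209.9 FPKM in Eed CTR libraries (log2 change 0.32, SE 0.17, adjusted p 0.668). For each gene 1 matKO library was the highest of the 4 and the other fell within the range of the controls, so the groups overlapped. Of 11679 genes tested, 0.0171% were called. Of 64 list genes tested limma called 0, which at this share does not set them apart from other genes. Slc30a1 was at -0.47 on the log2 scale (adjusted p 0.647) and Mtf1 at 0.09 (adjusted p 0.892). The means were 372 ± 74.8 FPKM for Mt1 in matKO embryos and 325 ± 21.2 FPKM in Eed CTR embryos (SD, n = 2 each), in a table normalized separately from the other experiments.

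**Figure D3:**
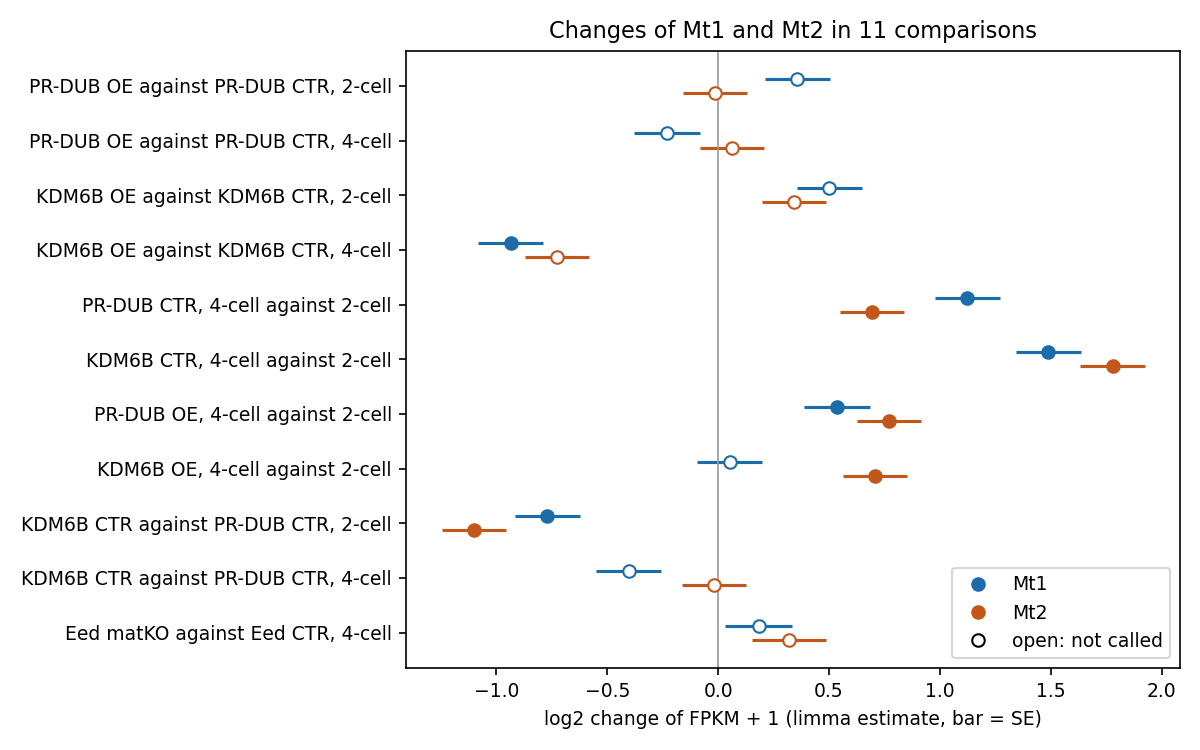
Log2 change of FPKM + 1 for Mt1 and Mt2 in 11 comparisons between groups, with the first-named group over the second, as estimated by limma with bars of 1 standard error. Filled points have an adjusted p under 0.05 and open points do not. The changes range from -1.10 for Mt2 in KDM6B CTR against PR-DUB CTR at the 2-cell stage to 1.78 for Mt2 in KDM6B CTR embryos, 4-cell against 2-cell.

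Within the 16 KDM6B and PR-DUB libraries, the mean level of Mt1 was highest in the 2 PR-DUB 4-cell groups, followed by KDM6B CTR 4-cell, the 2 PR-DUB 2-cell groups, KDM6B OE 4-cell and the 2 KDM6B 2-cell groups. Libraries of PR-DUB OE 4-cell and KDM6B CTR 4-cell overlapped, as did those of KDM6B OE at the 4-cell and the 2-cell stage, and the other neighbours in this order did not. For Mt2 the 3 highest groups, PR-DUB OE, PR-DUB CTR and KDM6B CTR at the 4-cell stage, averaged 481 ± 26.6, 461 ± 28.6 and 459 ± 84.6 FPKM (SD, n = 2 each) and overlapped. The next 3, both PR-DUB 2-cell groups and the 4-cell group of KDM6B OE, lay between 271 and 288 FPKM, also with overlap. KDM6B OE and CTR 2-cell libraries were the lowest, at 144 to 195 FPKM (OE) and 130 to 134 FPKM (CTR).

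Mt1 exceeded Mt2 in 21 of the 22 embryo libraries, and the ratio of their FPKM ran from 0.931 to 1.72 with a median of 1.31. The exception was the second KDM6B OE 4-cell library, at 258 FPKM for Mt1 and 278 FPKM for Mt2. FPKM is per length, but the Mt2 level may include reads of Gm45774, so the ratio need not be that of these genes alone. The geometric mean of the ratio was 1.25 (0.931 to 1.61) in 8 4-cell libraries and 1.42 (1.13 to 1.72) in 8 2-cell libraries, and the difference of -0.19 on the log2 scale had an exact permutation p of 0.127, two-sided. Within KDM6B it was -0.48, with an exact permutation p of 0.0286, which is the smallest that 4 against 4 libraries allow, and within PR-DUB it was 0.10, with an exact permutation p of 0.571. Adjusted over these 3 tests the exact permutation p values were 0.191 for all libraries, 0.0857 within KDM6B and 0.571 within PR-DUB. These 3 tests treat the libraries as independent although they form groups of 2, so their p values may be too small. The difference between the experiments in this ratio was not tested.

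Across the 16 KDM6B and PR-DUB libraries the levels of Mt1 and Mt2 varied together. Pearson's r of log2(FPKM + 1) was 0.93 and Spearman's rho 0.91, each with a permutation p of 2e-05, the smallest the resampling can give, and an adjusted p of 6e-05 over the 3 relations computed. Without the 2 libraries farthest from the median of Mt1, r was 0.93. Within the 8 2-cell libraries r was 0.91 (permutation adjusted p 0.00283) and rho 0.79 (adjusted p 0.0419), and within the 8 4-cell libraries r was 0.94 (permutation adjusted p 0.0120) and rho 0.69 (adjusted p 0.0694). In FPKM the within-stage relations rested in part on the extreme libraries. There r without the 2 farthest was 0.78 (permutation p 0.0611) at the 2-cell stage and 0.53 (permutation p 0.306) at the 4-cell stage. After rescaling by the median of ratios, r at the 4-cell stage was 0.97, and 0.89 without the 2 farthest (permutation p 0.00278). At the 2-cell stage r was then 0.79, and 0.80 without the 2 farthest (permutation p 0.0667), with a rho of 0.60 (permutation adjusted p 0.132). Both genes share each library's depth and scaling. The permutations treat the libraries as independent although they form 8 groups of 2, so these p values are too small.

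**Figure D4:**
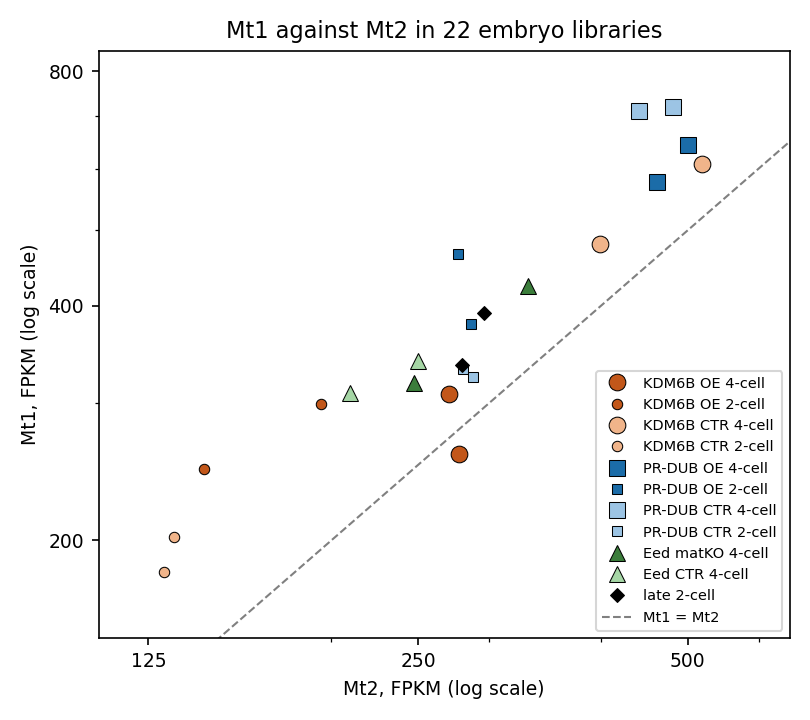
Mt1 against Mt2 in the 22 embryo libraries, both in FPKM on log axes, with a symbol for each group and larger symbols for 4-cell than for 2-cell groups of the KDM6B and PR-DUB experiments. The dashed line marks equal levels. One KDM6B OE 4-cell library lies under the line and the other 21 lie above it.

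Among 15054 other genes, those whose pattern over the 16 libraries was most like that of Mt1 by Pearson's r were Tent4b (0.95), Dvl2 (0.93), Mt2 (0.93), Eif5al3-ps (0.92) and Prps1 (0.92). For Mt2 they were Ptdss2 (0.97), Ctsb (0.97), Sf3a2 (0.96), Smc3 (0.96) and Tent4b (0.96), and Mt1 ranked 64th. Tent4b, a noncanonical poly(A) polymerase, stood among the 5 most similar genes for both, at 32.1 to 87.7 FPKM in these 16 libraries. Prps1, an enzyme of nucleotide synthesis, also resembled the metallothioneins between egg and embryo, at 239 FPKM in both late 2-cell libraries, against 0.375 and 0.304 FPKM in MII libraries. Smc3, a cohesin subunit, did not, at 58.1 and 49.8 FPKM in late 2-cell libraries and 150.3 and 115 FPKM in MII libraries.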

How the data were processed

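RNA of pooled embryos or oocytes was made into libraries with a low-input stranded SMART-Seq kit and sequenced as paired 76-base reads, on a NextSeq550 or HiSeq2000, per the labels' protocols. The authors deposited FPKM per gene in 3 tables. Trim Galore 0.6.5, HISAT2 2.1.0, StringTie 1.3.3b and mm10 are named in the submitters' processing notes, without roles. No source used here gives the annotation release or the use of strand. Total FPKM per library differed (355172 to 755389), so a level also depends on what else the library holds.

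Groups came from titles, except that the 2 Eed knockout libraries, titled OE, follow the manipulation field. For both 2-cell KDM6B OE libraries that field names PR-DUP instead, and the title was followed. Columns headed 30hpf were taken as late 2-cell embryos. No column of per-sample values was left unused.

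log2(FPKM + 1) of genes at 1 FPKM or more in at least 2 libraries of a table was fitted with limma 3.58.1 (R 4.3.3; eBayes with trend, Benjamini-Hochberg adjustment over all genes tested, call at adjusted p under 0.05), with the 16 KDM6B and PR-DUB libraries as 8 group means in 1 fit and the other 2 tables fitted separately. An exact permutation test of 2 against 2 libraries cannot go below 0.333. Fragment numbers were derived from the smallest step of FPKM times length. Comparisons of OE with CTR, of 4-cell with 2-cell and of effects share libraries. Correlations used 100000 resamples, or all orders where fewer. The members and lists were chosen with earlier results of these data known. Named genes are, of each list, up to 4 called genes by size of change in a comparison, with Mtf1, Slc30a1, Mt3 and Mt4 in any case, and the 5 most similar by Pearson's r. One gene named by this rule is not reported here.

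Alternatives were a pseudocount of 0.1, no filter, rescaling by the median of ratios, a replicate block, fits on the compared libraries alone, each library left out in turn and, chosen after seeing the data, TPM (FPKM scaled to a common total).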

Additional observations from a re-analysis of the deposited data

Results flagged for a closer look

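The change of Mt1 in KDM6B OE against KDM6B CTR embryos had a called difference between the stages. The 4-cell minus the 2-cell log2 change was -1.438, with an adjusted p of 0.0343 in limma. The call was lost with a replicate block (0.194), on the compared libraries alone (0.256) and in 5 of 8 fits that left out 1 library (up to 0.144). At the 4-cell stage both KDM6B OE libraries (308 and 258 FPKM) lay below both KDM6B CTR libraries (481 and 608 FPKM). At the 2-cell stage both KDM6B OE libraries (247 and 299 FPKM) lay above both KDM6B CTR libraries (202 and 182 FPKM). Of all genes tested, 20.2% lay below in this way at the 4-cell stage and 22.9% above at the 2-cell stage.

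The OE against CTR changes of Mt2 in PR-DUB and KDM6B embryos at the 4-cell stage differed by 0.7881 on the log2 scale. The adjusted p was 0.0346 in limma. The call was lost without the filter (adjusted p 0.0650), after rescaling (0.0985), with a replicate block (0.0769), on the compared libraries alone (0.0754) and in 7 of 8 fits that left out 1 library (up to 0.104). Mt2 changed by 0.06 in PR-DUB OE and by -0.73 in KDM6B OE 4-cell embryos, each against its own controls.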

How the results depend on the processing

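A pseudocount of 0.1 changed no direction and no call of the 32 limma results for Mt1 and Mt2, but moved late 2-cell against MII to 10.04 (Mt1) and 10.67 (Mt2). Without the filter, the PR-DUB minus KDM6B effect on Mt2 at the 4-cell stage (0.7881) lost its call. Rescaling by the median of ratios turned Mt2 in PR-DUB OE against CTR at the 4-cell stage (-0.1457), Mt1 in KDM6B OE embryos between stages (-0.2167) and the stage difference of the PR-DUB effect on Mt2 (-0.09249). It made a call of Mt1 in KDM6B CTR against PR-DUB CTR at the 4-cell stage (-0.6742) and ended that of the PR-DUB minus KDM6B effect on Mt2 there (0.539). TPM turned Mt2 in PR-DUB OE against CTR at the 2-cell stage (0.003515), Mt1 in KDM6B OE embryos between stages (-0.4716, then called) and Mt2 in KDM6B CTR against PR-DUB CTR at the 4-cell stage (0.1095). It ended the calls between stages of Mt2 in PR-DUB CTR (0.2642) and KDM6B OE (0.1858) embryos and of Mt1 in PR-DUB OE embryos (0.1389). It made calls of Mt2 in KDM6B OE against CTR (-0.7686) and of the PR-DUB minus KDM6B effect on Mt1 (0.7991), both at the 4-cell stage. The causes were not tested.

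The replicate block, and likewise the fit on the compared libraries alone, left the values as they were and ended 3 calls: Mt1 in KDM6B OE against CTR at the 4-cell stage (-0.9361), the stage difference of that effect (-1.438) and the PR-DUB minus KDM6B effect on Mt2 at the 4-cell stage (0.7881). The replicate numbers were not said to pair libraries, and deviations of libraries with the same number correlated by -0.062 to 0.037, so the numbers were not taken as pairs. The block changed no other call of Mt1 or Mt2. Of the 72 list genes it called 8 in PR-DUB OE against CTR at the 4-cell stage (11 without it) and 2 in the PR-DUB minus KDM6B effect there (9 without it), and it ended the Tfrc calls in KDM6B OE against CTR at the 2-cell stage and in the stage difference of that effect.

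Leaving out 1 library at a time gave log2 ranges of -1.105 to -0.7675 for Mt1 and -0.9161 to -0.5387 for Mt2 in KDM6B OE against CTR at the 4-cell stage.
Over the stage difference of the KDM6B effect the ranges were -1.606 to -1.269 (Mt1) and -1.287 to -0.8547 (Mt2). For the PR-DUB minus KDM6B effect they were 0.5371 to 0.8744 (Mt1) and 0.5994 to 0.9768 (Mt2) at the 4-cell stage and -0.2945 to 0.005445 (Mt1) at the 2-cell stage. Between stages Mt1 had 0.3859 to 0.6859 in PR-DUB OE and -0.0854 to 0.1894 in KDM6B OE embryos. KDM6B CTR against PR-DUB CTR at the 4-cell stage had -0.5724 to -0.2351 (Mt1) and -0.2082 to 0.1692 (Mt2). Mt2 in PR-DUB OE against CTR had -0.03814 to 0.011 at the 2-cell and -0.002403 to 0.1237 at the 4-cell stage, and Mt1 in Eed matKO against CTR had -0.0239 to 0.3881. Over all fits that left out 1 library, 128 results kept direction and call, 16 lost and 5 gained a call, and 9 changed sign.
The Mt1 to Mt2 ratio, 4-cell against 2-cell, was 0.09653 in PR-DUB libraries alone and -0.4755 in KDM6B libraries alone. Within stages, r of Mt1 with Mt2 without the 2 farthest libraries was 0.5347 (4-cell) and 0.7774 (2-cell) in FPKM. After rescaling by the median of ratios it was 0.8887 (4-cell) and 0.7987 (2-cell). With 2 libraries a group and, in the oocyte, fewer than 10 fragments of either gene, small differences and the exact size of the difference from the oocyte are beyond this depth.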
